A study of Mus musculus with 2 samples.

Results

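Immature neutrophils were chosen among CD45+ cells of mouse liver metastases as cells that carried S100a8 and S100a9 together with the granule genes Ngp, Camp and Ltf. A cell was a member if it held at least 200 genes, at most 6000 genes, at most 30000 UMIs (unique molecular identifiers, each counting 1 captured mRNA molecule) and at most 10% mitochondrial UMIs, if S100a8 and S100a9 reached 30 of every 10000 of its UMIs, if Ngp, Camp and Ltf summed to at least 4 UMIs, and if Cd3e, Cd79a and Adgre1 were at 0. This selected 259 of the 19999 cells that passed the first limits, 31 in the Ctrl library and 228 in the KD library. Both libraries came from C57BL/6 mice aged 6 to 8 weeks that had received MC38-LM3b cells, a liver-metastatic derivative of the MC38 colon carcinoma line, by injection into the spleen 2 weeks earlier. The tumor cells carried a scrambled hairpin in Ctrl (shScramble) and a hairpin against SLAMF3 in KD (shSLAMF3), so the host cells described here carried neither. Lesions of 3 mice were pooled before CD45+ selection into 1 library per group, so no test between the groups was possible and every interval given below covers counting error only.

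Neutrophils are made in the bone marrow, where dividing promyelocytes fill primary granules with Mpo, Elane, Prtn3 and Ctsg, myelocytes and metamyelocytes fill secondary granules with lactoferrin (Ltf), cathelicidin (Camp), neutrophilic granule protein (Ngp) and lipocalin 2 (Lcn2), and later stages fill gelatinase granules with Mmp9. Transcription of the granule genes is then switched off, and circulating neutrophils carry receptors such as Csf3r and Cxcr2 instead. Cells with granule mRNA outside the marrow are therefore usually described as immature, and they are known to appear in blood, spleen and tumors when granulopoiesis is under demand.

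Ngp, Camp and Ltf lie on chromosome 9, with 8 protein-coding genes between Camp and Ngp and 20 between Ngp and Ltf in the RefSeq annotation of GRCm38.p6. The 250 bases before the start of each, taken from RefSeq on that build, are printed because the mRNAs of these genes selected the cells. Capitals mark letters that match TTNNGNAA (a C/EBP motif) or AGGAAG (a PU.1 motif core) on either strand, C/EBP and PU.1 being factor families of granulocyte development. The windows are chr9:110419558-110419807 (plus strand) for Ngp, chr9:109849457-109849706 (minus strand) for Camp and chr9:111019042-111019291 (plus strand) for Ltf.
Ngp: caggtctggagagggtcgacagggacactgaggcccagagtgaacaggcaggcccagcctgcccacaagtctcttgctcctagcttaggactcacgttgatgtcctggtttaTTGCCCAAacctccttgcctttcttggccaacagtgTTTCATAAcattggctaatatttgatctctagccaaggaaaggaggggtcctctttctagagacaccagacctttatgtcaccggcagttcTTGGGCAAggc
Camp: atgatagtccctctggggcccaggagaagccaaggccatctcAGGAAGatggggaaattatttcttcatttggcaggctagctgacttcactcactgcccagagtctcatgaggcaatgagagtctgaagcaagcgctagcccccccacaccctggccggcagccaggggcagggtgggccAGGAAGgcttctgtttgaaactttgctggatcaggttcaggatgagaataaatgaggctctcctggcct
Ltf: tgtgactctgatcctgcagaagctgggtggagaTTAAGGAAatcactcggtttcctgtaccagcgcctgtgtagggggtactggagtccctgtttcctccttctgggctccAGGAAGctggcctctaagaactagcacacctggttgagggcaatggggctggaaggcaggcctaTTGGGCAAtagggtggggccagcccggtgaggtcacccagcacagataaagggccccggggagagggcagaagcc
The C/EBP letters matched 3 times before Ngp and 2 times before Ltf, and the PU.1 letters matched 2 times before Camp and 1 time before Ltf. TATAAA was in none of these windows. Of 32851 windows of this length in the same table, 36.8% held TTNNGNAA, 29.5% held AGGAAG and 12.4% held TATAAA, so each match is a description of the letters and not a binding site.

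The markers fixed for the label were present in the members. Lcn2, which was not used in the choice, had a UMI in 30 of 31 Ctrl members and in 228 of 228 KD members. Cd177, a neutrophil surface protein, had one in 28 of 31 and 208 of 228. Mature neutrophils also held Lcn2, in 161 of 425 Ctrl and 1029 of 1393 KD cells, and Cd177 in 13 and 145 of them. With each cell thinned at random to 1500 UMIs, Lcn2 was in 29 of 29 and 227 of 227 members. It was then in 35.3% and 68.2% of mature cells. Cxcr2, a receptor of circulating neutrophils, was also present, in 22 of 31 Ctrl and 192 of 228 KD members. At the same 1500 UMIs per cell it was in 27.6% and 47.6% of members. Mature cells, which were chosen on Csf3r or Cxcr2, then held it in 45.8% and 51.6%. Some markers of several other lineages were at 0. Prg2, Epx and Ear1 of eosinophils, Mcpt8, Cpa3 and Fcer1a of basophils and mast cells, Siglech and the globin genes Hbb-bs, Hba-a1 and Hba-a2 had 0 UMIs in both libraries. Their whole lists were not at 0 in KD. The 8 eosinophil, basophil and mast cell genes held 1 UMI in Ctrl and 5 in KD. The 6 dendritic cell genes held 0 and 23, and the 7 erythroid and platelet genes 0 and 5. The 9 endothelial, tumor and hepatocyte genes held 2 and 89, in 6.45% and 8.33% of members. Transcripts of macrophages and lymphocytes were present, however. The genes counted were Csf1r, C1qa, C1qb, C1qc, Cd3d, Cd79b and Siglech. At least 1 UMI of them was in 21 of 31 Ctrl members (67.7%) and 105 of 228 KD members (46.1%). Among mature neutrophils the shares were 44% in Ctrl and 41.1% in KD, at lower median depths of 2220 and 2660 UMIs. These shares of members and mature cells were therefore not taken at equal depth. Members held a median of 5680 UMIs in Ctrl (505 to 10415) and 5950.5 in KD (707 to 28047), and 1 KD member shared its barcode with a cell of the other library. Likely doublets by simulated cell pairs numbered 2 among Ctrl and 19 among KD members. The targeted gene Ly9, which encodes SLAMF3, had 1 UMI in the Ctrl members and 2 in the KD members, which says nothing of the tumor cells.

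Immature neutrophils made up a larger share of the KD library. They were 0.316% of the 9814 filtered Ctrl cells (95% exact interval 0.215 to 0.448) and 2.24% of the 10185 filtered KD cells (1.96 to 2.54), a difference of 1.92 percentage points (1.61 to 2.25). All cells past the S100a8 and S100a9 limit and the 3 genes at 0 were themselves more frequent in KD, with 1983 cells against 535. Taken over gated cells alone, the immature share still differed, with 5.79% of Ctrl cells (3.97 to 8.12) against 11.5% of KD cells (10.1 to 13), and the interval of this 5.70 point gap ran from 3 to 8.06. As a background, 26 of 3430 Ctrl T cells (0.758%) and 0 of 2199 KD T cells held 4 or more UMIs of Ngp, Camp and Ltf. The 0 allows a share of up to 0.136% (0.168% by the exact interval). Median depths of these T cells were 6879.5 and 5276 UMIs. Single genes differed in direction, since Ltf was in 4.87% of Ctrl and 1.00% of KD T cells, whereas Ngp, present in every member, was in 0.583% and 1.27%. With 1 library of pooled mice per group, the difference cannot be told apart from variation between libraries.

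Among gated cells, the surplus in KD lay in the cells with few granule UMIs. Of all filtered cells, those with 100 or more granule UMIs were also more frequent in KD, with 75 of 10185 against 18 of 9814, a difference of 0.553 points. The same cells were 3.36% of gated cells in Ctrl (18 cells) and 3.78% in KD (75 cells), and their difference of 0.418 points had an interval of -1.64 to 2.07 that included 0. Cells with 10 to 99 such UMIs were 1.5% of gated cells in Ctrl (8 cells) and 4.49% in KD (89 cells), and those with 4 to 9 were 0.935% (5 cells) and 3.23% (64 cells). Both of these differences, 2.99 points (1.32 to 4.31) and 2.29 points (0.858 to 3.37), had intervals above 0. Gated cells just short of the limit, with 1 to 3 granule UMIs, showed the same direction with 6.17% in Ctrl and 13.2% in KD. Members of the 2 libraries therefore differed in composition, because 58.1% of Ctrl members but 32.9% of KD members held 100 or more granule UMIs (a difference of -25.2 points, -43.6 to -5.10). At the 3 levels the median depth was 4794, 5731 and 5945 UMIs per cell in Ctrl and 4819, 5677 and 7874 in KD.

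**Figure D1:**
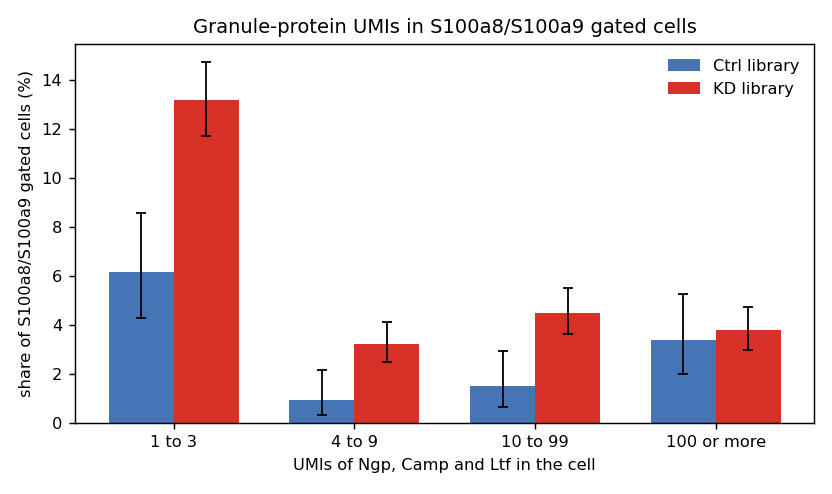
Share of S100a8/S100a9 gated cells (y axis, %) by the number of Ngp, Camp and Ltf UMIs in the cell (x axis), for the Ctrl library (blue, 535 gated cells) and the KD library (red, 1983). Bars are shares and whiskers exact 95% binomial intervals; the bars stand apart at 1 to 3, 4 to 9 and 10 to 99 UMIs and lie at 3.36% and 3.78% at 100 or more.

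The 3 genes of the rule were not detected at the same granule level. Ngp had a UMI in every member of both libraries, so no member was chosen on Camp or Ltf alone. At 4 to 9 granule UMIs, Camp was seen in 0 of 5 Ctrl cells and 17 of 64 KD cells and Ltf in 0 of 5 and 2 of 64. At 10 to 99, Camp was seen in 8 of 8 and 72 of 89 cells and Ltf in 5 of 8 and 55 of 89. At 100 or more, Camp reached 20459 CPM (UMIs of the gene per 1000000 UMIs of the summed cells) in Ctrl and 18875 in KD, Ngp 19999 and 18673, and Ltf 5044 and 4191. These values follow from the levels by which the cells were split and are given as a description.

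Several genes that the rule did not use were highest in the cells with most granule UMIs. Chil3, a chitinase-like secretory protein of myeloid cells, was at 0, 147 and 1460 CPM at the 3 rising levels in Ctrl and at 213, 829 and 3118 CPM in KD. Cebpe, the transcription factor of secondary granule genes, was at 0, 49.0 and 106 CPM in Ctrl and at 14.4, 55.1 and 211 CPM in KD. Cybb, the catalytic subunit of the NADPH oxidase, was at 202, 147 and 1929 CPM in Ctrl and at 227, 294 and 1454 CPM in KD. All 3 genes were highest at 100 or more granule UMIs in both libraries. Cxcr2, Cxcl2 and Il1b ran the other way. Cxcr2, the receptor for neutrophil chemokines, went from 655 to 159 CPM between the lowest and the highest level in Ctrl and from 477 to 178 CPM in KD. Mature cells were at 421 CPM of Cxcr2 in Ctrl and 526 CPM in KD. Cxcl2, a neutrophil-attracting chemokine, went from 9778 to 4495 CPM in Ctrl and from 6634 to 1192 CPM in KD. Il1b went from 1997 to 407 CPM in KD but only from 2419 to 1991 CPM in Ctrl.

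Retnlg and Mmp8 peaked below the highest level. Retnlg, a resistin-like secreted protein of neutrophils, was at 25402, 36542 and 9654 CPM in Ctrl and at 24007, 21563 and 6571 CPM in KD, against 1855 and 5752 CPM in mature cells with no granule UMI. Mmp8, neutrophil collagenase, was at 1966, 2178 and 1743 CPM in Ctrl and at 1365, 1707 and 972 CPM in KD. Both genes were lower in cells of 100 or more than in cells of 10 to 99 granule UMIs in either library. Just inside the limit, at 4 to 5 granule UMIs, Lcn2 was at 12588 CPM in 3 Ctrl cells and 6088 CPM in 30 KD cells, and just outside it, at 2 to 3, at 4851 CPM in 2 Ctrl cells and 5286 CPM in 87 KD cells. Retnlg was at 33205 and 23444 CPM just inside and at 1679 and 16792 CPM just outside, in Ctrl and KD.

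**Figure D2:**
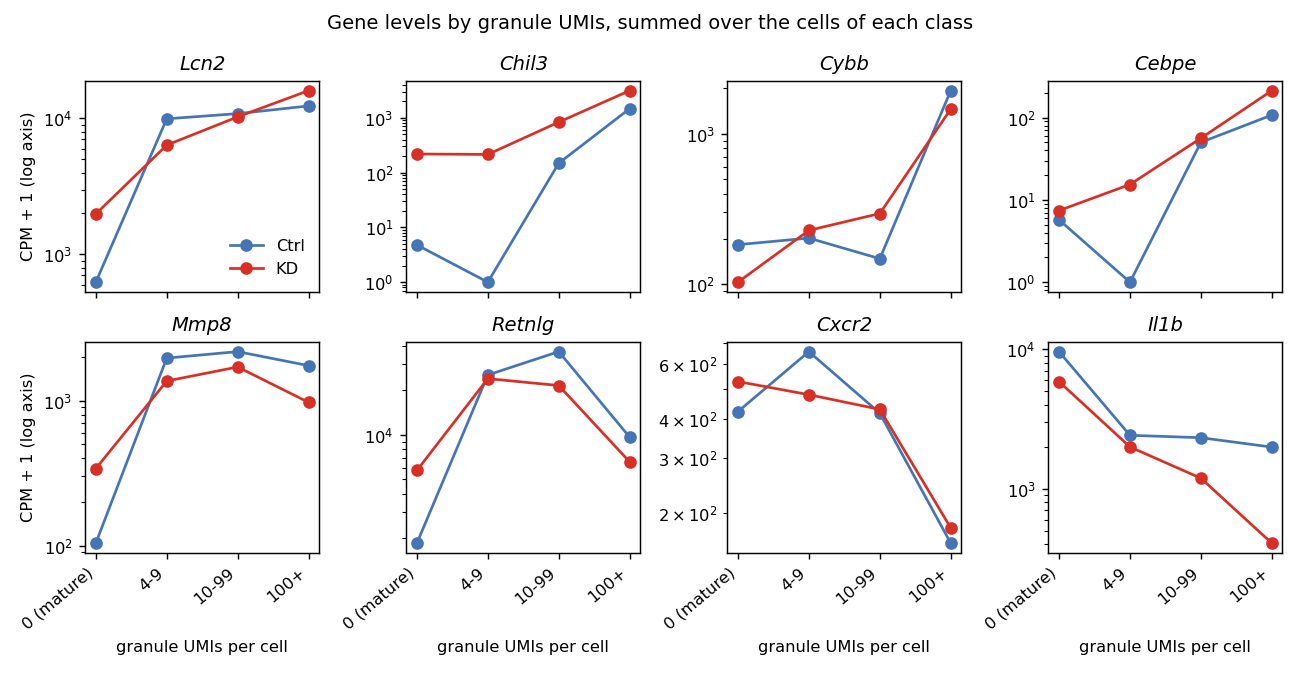
Summed level of 8 genes (y axes, CPM + 1, log scale) in mature cells (0 granule UMIs) and in members with 4 to 9, 10 to 99 and 100 or more granule UMIs (x axes), for Ctrl (blue; 425, 5, 8 and 18 cells) and KD (red; 1393, 64, 89 and 75 cells). Chil3, Cybb and Cebpe are highest on the right in both libraries, Retnlg peaks among the middle classes, and Il1b declines more in KD than in Ctrl.

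Set beside mature neutrophils of the same library, defined as gated cells with 0 granule UMIs and at least 1 UMI of Csf3r or Cxcr2 (425 Ctrl and 1393 KD cells), members were higher for 80 of the 2780 genes compared (2.88%) and lower for 402 (14.5%). A gene counted when its ratio was 2-fold or more with a log2 interval that excluded 0, in the same direction in both libraries. The rule separated these cells, so the counts are a description. Over all 2780 genes the median log2 ratio was -0.47 in Ctrl and -0.37 in KD. Of 13 secondary granule genes measured 10 were higher, including Ngp, Camp and Ltf, which the rule fixed; the others included Chil3 (log2 ratio 8.03 in Ctrl and 2.97 in KD), Lcn2 (4.23 and 2.59), Cybb (2.85 and 2.94) and Pglyrp1, a bactericidal granule protein (1.95 and 1.45). The Ctrl ratio of Chil3 rested on 3 of 425 mature cells with a UMI, at 3.78 CPM, so its size is uncertain. Serpinb1a, an inhibitor of granule proteases, had log2 ratios of 5.90 in Ctrl and 5.31 in KD, Ly6c2 2.63 and 2.68 and Mmp9 1.36 in each. Adpgk (5.90 and 4.34), Ly6a2 (5.50 and 3.50), Ifitm6 (4.28 and 3.07), Aldh2 (3.82 and 3.57) and Abca13 (3.61 and 3.12) were among the 10 largest ratios. Cebpe, with log2 ratios of 4.09 and 4.16, had 14 UMIs in immature Ctrl cells, and fewer than 50 with mature ones added, and was not compared. TMM scaling, which corrects for composition, moved these ratios by 0.055 in Ctrl and 0.12 in KD and gave 98 higher and 327 lower genes.

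Interferon response genes were lower in members. Of 28 interferon response genes compared, 23 were lower, 0 were higher and 5 were neither. Among all 2780 genes, 14.5% were lower and 2.88% higher. The median log2 ratio of the 28 was -2.82 in Ctrl and -1.79 in KD. Cxcl10, an interferon-induced chemokine, was at 184 CPM in immature and 1505 CPM in mature Ctrl cells and at 13.2 and 129 CPM in KD. Cd274, which encodes PD-L1, was at 253 and 2059 CPM in Ctrl and at 94.5 and 516 CPM in KD. Late maturation genes were lower in 9 of 20 and higher in 1, Retnlg (3.26 and 1.43). The lower ones included Ptgs2, cyclooxygenase 2, at -2.94 and -2.61, and Csf3r, the G-CSF receptor, at -1.80 and -1.63, but mature cells were chosen on a UMI of Csf3r or Cxcr2. Gbp5 (-3.90 and -3.57), Gadd45b (-3.34 and -3.27) and Icam1 (-3.37 and -3.19) were among the 10 lowest ratios. Cxcr4, the receptor that holds neutrophils in the marrow, was also lower, at -2.42 and -2.17.

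Between the libraries, 3466 genes had at least 50 UMIs over the members. Of these, 282 (8.14%) were 2-fold or more higher in KD and 105 (3.03%) 2-fold or more lower, with intervals that excluded 0. The median log2 ratio of KD over Ctrl was 0.21 over all 3466 genes, and each ratio below is to be read against that shift. TMM scaling moved the ratios by 0.0056 and gave 287 higher and 105 lower genes. Of the genes also measured in mature cells, 47 of 276 higher ones and 37 of 100 lower ones had the same call there and 1 higher one the opposite call. Over all 6317 genes measured in mature cells, 7.57% were higher and 4.38% lower in KD.

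None of the 5 label markers differed 2-fold between the libraries. Lcn2 was at 11715 CPM in Ctrl and 11923 CPM in KD members (log2 ratio 0.025, -0.041 to 0.092) and Cd177 at 587 and 639 CPM (0.12, -0.17 to 0.43). Ngp, Camp and Ltf had log2 ratios of -0.51, -0.68 and -0.75, beside the smaller share of KD members with 100 or more granule UMIs. Of 14 secondary granule genes measured, 13 were not called, and the call for Olfm4 (log2 ratio -3.19) came from 1 Ctrl cell that held 37 of the 43 Ctrl UMIs. Chil3 was not called over all members, of which a smaller share lay at the highest level in KD, but within levels it was 2-fold or more higher in KD, with a log2 ratio of 1.09 (0.87 to 1.33) at 100 or more granule UMIs and 2.57 (1.44 to 4.03) at 4 to 99, the latter with 6 Ctrl UMIs. The 0 calls among 10 gelatinase granule and secretory genes, 8 retention and release genes and 6 NADPH oxidase genes stood beside medians of -0.31, 0.11 and 0.20. In mature cells several early genes were higher in KD, with log2 ratios of 1.67 for Lcn2, 1.74 for Cd177, 1.72 for Mmp8, 1.63 for Retnlg and 5.84 for Chil3, whose mature level was 3.78 CPM in Ctrl and 216 CPM in KD. In immature cells Mmp8 was at -0.51, Retnlg at -0.20 and Chil3 at 0.79. The difference between the 2 classes was not tested. The same transcripts were also in more KD than Ctrl T cells, which should lack them, with Lcn2 in 0.816% and 4.41%, Retnlg in 1.08% and 8.82%, Chil3 in 1.20% and 5.78% and Mmp8 in 0.262% and 1.46%, and the part of such background in the mature ratios was not tested.

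Most stefin genes measured were higher in KD members. They encode small intracellular inhibitors of cysteine proteases with near-identical sequences, and reads may be split among them, so the assignment to single members is uncertain. Of 7 measured, 5 were higher in KD, 0 were lower and the median log2 ratio was 2.31. Of all 3466 genes, 8.14% were higher and 3.03% lower. Stfa2 had 0 UMIs in the 31 Ctrl members and 696 UMIs in 64 of 228 KD members (28.1%). The Ctrl count allows a share of cells of up to 9.68% (11.2% by the exact interval). Set against 3 UMIs over the Ctrl group, the KD level was 25.4-fold. KD cells with a UMI held several on average, so this figure is not a lower bound on the ratio. Cstdc5 had 0 UMIs in Ctrl and 604 in 41 KD cells, 22-fold against the same 3 UMIs and likewise no lower bound. Stfa1 was at 23.0 and 300 CPM (log2 ratio 3.70, 2.34 to 5.58), with all 4 Ctrl UMIs in 1 cell. Stfa3 was at 40.3 and 200 CPM (2.31, 1.25 to 3.63), with its 7 Ctrl UMIs also in 1 cell, and Stfa2l1 at 363 and 879 CPM (1.28, 0.91 to 1.66). Cstdc4, at 501 and 787 CPM (0.65), and Cstb, at 155 and 127 CPM (-0.29), were not called.

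By granule level the Ctrl classes were small. Stfa2 was found in 0 of 5, 0 of 8 and 0 of 18 Ctrl cells and in 12 of 64, 26 of 89 and 26 of 75 KD cells at the rising levels. Cstdc5 was likewise at 0 in the 3 Ctrl classes and in 9 of 64, 16 of 89 and 16 of 75 KD cells. A count of 0, read as at most 3, allows up to 60% of 5 cells, 37.5% of 8 and 16.7% of 18. The exact upper limits were 52.2%, 36.9% and 18.5%. A difference in the share of cells was therefore not detectable at the lower levels. At 100 or more the KD share was 34.7% (24.0 to 46.5) for Stfa2 and 21.3% (12.7 to 32.3) for Cstdc5. The Cstdc5 interval reached below both Ctrl limits, so its difference was not detectable there either. Among members with 100 or more granule UMIs, Stfa2l1 was at 212 CPM in Ctrl and 574 CPM in KD (log2 ratio 1.43, 0.84 to 2.09). Among those with 4 to 99 its ratio was 0.80 (0.34 to 1.30), short of 2-fold. The ratio of Stfa3 there was 0.80 with 0.5 UMI added to both counts, also short of 2-fold. The highest KD cell held 4.80% of the KD UMIs of Stfa2l1, 7.18% of Stfa2, 12.6% of Stfa3, 19.5% of Cstdc5 and 27.1% of Stfa1. Mature neutrophils had the same direction, with log2 ratios of 2.35 for Stfa2, 2.27 for Stfa1 and 0.64 for Stfa2l1. In T cells, Stfa2 was in 0 of 3430 Ctrl and 8 of 2199 KD cells and Stfa2l1 in 0.262% and 1.36%. The part of such background in the stefin ratios was not tested.

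**Figure D3:**
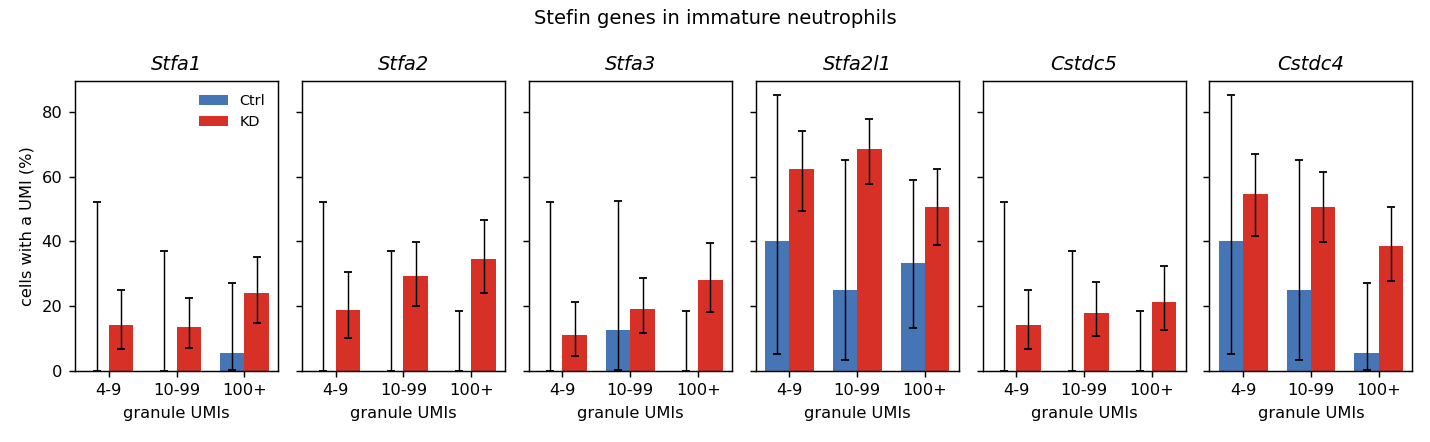
Share of immature neutrophils with a UMI of each of 6 stefin genes (y axis, %) at 4 to 9, 10 to 99 and 100 or more granule UMIs (x axis), for Ctrl (blue; 5, 8 and 18 cells) and KD (red; 64, 89 and 75 cells). Whiskers are exact 95% binomial intervals, and Stfa2 and Cstdc5 are at 0 in the 3 Ctrl classes.

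Some interferon-induced genes, some chemokines and Thbs1 were lower in KD members. Of 15 interferon response genes measured, 6 were lower, 1 was higher and 8 were neither, beside 3.03% lower and 8.14% higher over all 3466 genes. The median log2 ratio of the 15 was -0.58. None of the 8 still measured was called among the 10 Ctrl and 123 KD members with 0 UMIs of the 7 macrophage and lymphocyte genes named above (median -0.41), nor either of the 2 still measured in cells thinned to 1500 UMIs (median 0.28). These medians had 0.5 UMI added to both counts, and so computed the median over all members was -0.64. Isg15, a ubiquitin-like antiviral protein, was at 409 CPM in Ctrl and 80.6 CPM in KD (log2 ratio -2.34, -2.77 to -1.90), and had a UMI in 14 of 31 and 53 of 228 cells. Cxcl10 was at 184 and 13.2 CPM (-3.80, -4.67 to -2.96), with 17 of the 32 Ctrl UMIs in 1 cell. Rsad2, an antiviral enzyme, was at -1.87, Zbp1, a sensor of Z-form nucleic acid, at -1.38 and Cd274 at -1.42. Mature cells showed log2 ratios of -1.96 for Isg15, -3.55 for Cxcl10, -2.30 for Rsad2 and -2 for Cd274, so the direction was not confined to immature cells. A single Ctrl cell held 28 of the 71 Isg15 UMIs, and without the highest cell of each library the log2 ratio was -1.72 (-2.24 to -1.19). It was -0.57 among members with 0 UMIs of those 7 genes. Isg15 was lower at both granule levels, with a log2 ratio of -3.69 (-4.54 to -2.89) at 100 or more UMIs and -1.98 (-2.58 to -1.34) at 4 to 99. The first of these ratios rested on 42 Ctrl UMIs in 18 cells, of which 28 were in that single Ctrl cell. The 1 higher gene, Cxcl9, had a log2 ratio of 1.67 in members but -2.02 in mature cells, and it had fewer than 50 UMIs once likely doublets were left out.

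Of 8 chemokine genes measured, 3 were lower in KD and 1 was higher, with a median log2 ratio of -0.81. Over all 3466 genes, 3.03% were lower and 8.14% higher. Ccl3 was at 484 CPM in Ctrl and 154 CPM in KD (log2 ratio -1.65, -2.01 to -1.27), Ccl4 at 679 and 200 CPM (-1.77) and Cxcl3 at 167 and 51.0 CPM (-1.71). With 0.5 UMI added to both counts, Ccl4 had a log2 ratio of 0.0013 among members with 0 UMIs of those 7 genes. Among members with 4 to 99 granule UMIs its ratio, so computed, was -0.28 and not called. The higher one was Ccl5, with 5 Ctrl UMIs, and it was lower in the mean over cells. Thbs1, the matrix protein thrombospondin 1, was at 2153 CPM in Ctrl and 545 CPM in KD (-1.98, -2.16 to -1.80), in 23 of 31 and 119 of 228 cells. Thbs1 kept its call in all 16 alternatives run, of which those with a lower UMI minimum could not remove it. Its log2 ratio in mature cells was -0.52. Ccrl2, a chemerin-binding receptor, was at -2.58, with 18 of 57 Ctrl UMIs in 1 cell. Il1b was at -1.05, just past 2-fold, and at -0.01 among members with 0 UMIs of those 7 genes. Late maturation genes had 2 of 20 higher in KD, Ifitm1 at 1284 and 3399 CPM (1.40) and Wfdc17, a small secreted protein, at 1.57, and 1 lower, Il1b. These counts were near the 8.14% higher and 3.03% lower over all genes. Ifitm1 was at 0.69 and not called among members with 4 to 99 granule UMIs.

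**Figure D4:**
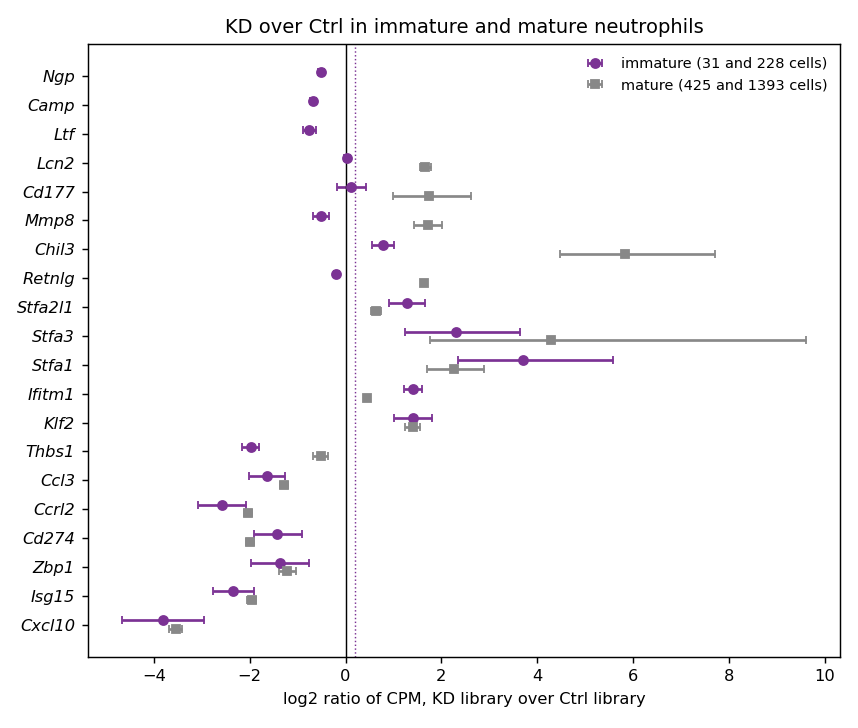
Log2 ratio of CPM in the KD library over the Ctrl library (x axis) for 20 genes (y axis) in immature neutrophils (purple circles; 31 and 228 cells) and mature neutrophils (grey squares; 425 and 1393 cells). Whiskers are exact 95% counting intervals and the dotted line is the median of all 3466 genes (0.21); Ngp, Camp and Ltf have no mature value, since mature cells were chosen without them.

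Other calls rested on a few cells. Of 8 primary granule genes measured, 6 were higher in KD, beside 8.14% over all 3466 genes. Among the 6 were Elane (0 and 281 UMIs), Ctsg (0 and 161) and Mpo (0 and 99). A single KD cell held 272 of the Elane, 160 of the Ctsg and 97 of the Mpo UMIs, and Elane was detected in 4 of 228 KD cells, Mpo in 3 and Ctsg in 2. Against 0 of 31 Ctrl cells, the 1.75% of KD cells with Elane was no detectable difference at this depth. That 0 allows a share of up to 9.68% (11.2% by the exact interval). Prtn3 was wider spread, with UMIs in 2 of 31 Ctrl and 22 of 228 KD cells, yet 220 of its 310 KD UMIs came from 1 cell. Progenitor markers were near 0, Cd34 having 0 UMIs in Ctrl and 2 in KD.

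Dividing cells were few among the members. After each cell was thinned to 1500 UMIs, 1 of 29 Ctrl members (3.45%) and 10 of 227 KD members (4.41%) held 2 or more UMIs of 18 mitosis genes, a difference of 0.957 points (-13.5 to 5.84) that was not detectable at this depth; 2 Ctrl members and 1 KD member were too shallow to be thinned. At their own depth the shares were 9.68% and 9.65%. The same thinned share was 1.57% and 0.621% in mature neutrophils and 33.5% and 21.8% in T cells. In KD the summed mitosis level was 17.2, 130 and 956 CPM at the 3 rising granule levels, and in Ctrl it was 101, 147 and 115 CPM. Called higher in KD were 3 of 5 mitosis genes (Top2a, Ube2c and Birc5) and 4 of 4 S phase genes (Pcna, Rrm2, Dut and Slbp). The share over all 3466 genes was 8.14%. These calls came with 0 to 2 Ctrl UMIs each, and 293 of 742 KD mitosis UMIs were in the 2 cells that held the most Elane, Mpo and Ctsg.

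**Figure D5:**
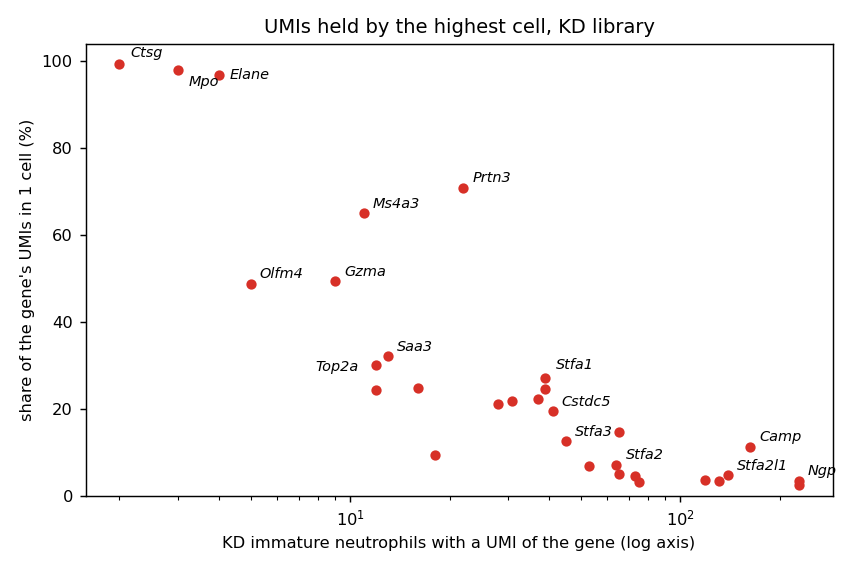
Share of a gene's UMIs held by the single highest KD member (y axis, %) against the number of the 228 KD members with a UMI of that gene (x axis, log scale), for genes named in the text. Ctsg, Mpo and Elane lie above 90% in 2 to 4 cells, whereas Stfa2 lies at 7.18% in 64 cells.

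Macrophage and T cell transcripts were given by the whole lists. C1qa, C1qb and C1qc, complement genes of macrophages, were called higher in KD (log2 ratios 1.80, 1.59 and 1.59), and 480 of their 576 KD UMIs lay in 7 cells with 10 or more each, against 20 UMIs in all Ctrl members. In members the summed level of 7 macrophage genes was 322 CPM in Ctrl and 670 CPM in KD, and that of 6 T cell genes 40.3 and 71.2 CPM. The 5 B cell genes summed to 40.3 and 29.0 CPM and the 6 dendritic cell genes to 0 and 14.5 CPM. The 6 monocyte genes summed to 950 and 610 CPM, of which Ly6c2, also a gene of young neutrophils, was most. In mature cells the macrophage sum was 732 CPM in Ctrl and 667 CPM in KD. The T cell sum there was 59.5 and 41.5 CPM, and the B cell sum 44.4 and 35.6 CPM. Per UMI, the macrophage sum in Ctrl was thus lower in members than in mature cells. The part of these transcripts in the differences above was not tested. Without the 9 KD cells that held these C1q UMIs or 3 or more Elane, Mpo and Ctsg UMIs, 195 genes were higher and 101 lower. Among members with 0 UMIs of the 7 macrophage and lymphocyte genes, 92 were higher and 73 lower, and 11 of 31 named higher and 5 of 20 named lower genes kept their calls. Stfa1, Stfa2, Cstdc5 and Thbs1 were called in both settings and Isg15 only in the first.

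The remaining lists gave few calls, beside 8.14% higher and 3.03% lower over all 3466 genes. Of 17 glycolysis and hypoxia genes measured, Egln3, an oxygen-sensing hydroxylase, was higher in KD with 1 Ctrl UMI, and the median log2 ratio was 0.16. Of 12 transcription factors of granulopoiesis measured, Klf2 was higher (322 and 852 CPM, log2 ratio 1.40, 1.02 to 1.81), with the same ratio of 1.40 in mature cells. With 0.5 UMI added to both counts, Klf2 was at 0.86 and not called among members with 4 to 99 granule UMIs. Egr1 was lower (-1.80), and without likely doublets it was at -0.48 with 0.5 UMI added and not called. Cebpb, a factor of emergency granulopoiesis, was at 4680 and 3741 CPM (-0.32), and Cebpe at 80.6 and 115 CPM (0.51, -0.28 to 1.41). Among the 10 highest ratios outside these lists, Sertad3 and Kat6a had 0 UMIs in Ctrl and were spread over 75 and 65 KD cells with 91 and 100 UMIs. Set against 3 Ctrl UMIs, they were 3.32-fold and 3.65-fold higher. Saa3 (143 UMIs) and Gzma (79) lay in 13 and 9 KD cells. The 10 lowest ratios, beside genes given above, included Cd69 (-2.39), Abca1 (-2.14), Nfkbie (-2.12), Txnl1 (-2.06) and Homer1 (-1.96). Of 9 genes linked to suppressive neutrophils, Cd274 and Il1b were lower and 0 were higher.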

How the data were processed

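Droplet 3′ single-cell RNA sequencing gave 1 library for Ctrl and 1 for KD. The deposited values were UMI counts per gene and cell, which the authors made without normalization; the submitters' processing notes named Cell Ranger 7.1.0, Seurat 5.1.0, R 4.4.1 and GRCm39, and the annotation version is not given in the sources used here. The libraries held 67207234 and 64444715 UMIs in 10416 and 10943 cells, and 27 barcodes occurred in both.

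The members and gene lists were chosen with earlier results of these data known. Counts were summed over cells and scaled to CPM. Shares carried exact Clopper-Pearson, sums exact Poisson and CPM ratios exact conditional binomial 95% intervals, all for counting error only; the interval of a difference combined those of both shares. A gene was called at a 2-fold ratio with an interval excluding 1-fold and 50 or more UMIs over both libraries (over both classes in each library for immature against mature). The text names genes of the 25 lists and the 10 highest and lowest of each comparison. Pairings of these genes with the cells that held their UMIs, and the level classes, were chosen after the values were seen. A count of 0 was read as at most 3 counts. For shares of 18 or more cells this lies below the exact upper limit. Ratios and list medians of alternative settings, where no interval is given, had 0.5 UMI added to both counts, except the mean over cells. Likely doublets were left in, and removed in an alternative by Scrublet score (scanpy 1.11.5, the highest 0.8% per 1000 cells). TMM factors came from edgeR 4.0.16 in R 4.3.3, and all else from Python 3.11.15, numpy 2.4.6, scipy 1.17.1 and pandas 2.3.3. The ratio code was tested on simulated counts. The values of 1 listed gene are not reported here.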

Additional observations from a re-analysis of the deposited data

How the results depend on the processing

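No paired analysis was possible because each group had 1 library, and for the same reason no replicate could be left out. The immature share of filtered cells and of gated cells stayed higher in KD in all 10 alternatives run for it. The difference in filtered cells (1.92 percentage points) was 2.76 with a minimum of 2 granule UMIs, 1.45 with 8, 1.11 with Csf1r, C1qa, C1qb, C1qc, Cd3d, Cd79b and Siglech also at 0, 1.54 with cells thinned to 1500 UMIs and 0.553 for members with 100 or more granule UMIs. The difference in gated cells (5.70) was 9.72 with a minimum of 2 granule UMIs and 0.418 at 100 or more, the value whose interval included 0.

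The 282 higher KD genes became 169 without likely doublets, 92 with those 7 genes at 0, 48 with cells thinned to 1500 UMIs, 176 for members with 100 or more granule UMIs, 167 for those with 4 to 99 and 472 without the highest cell of each library for each gene, which removes a larger part of the 31 Ctrl than of the 228 KD cells. The 105 lower genes became 25 with thinned cells, 216 with no minimum of UMIs and 51 without the highest cell. The 80 genes higher in immature than mature cells became 40 with those 7 genes at 0, 41 with thinned cells, 146 with a minimum of 20 UMIs and 224 with none, and the 402 lower ones became 267 with thinned cells. Fewer cells or UMIs enter several of these settings, so fewer genes could be called. Of 31 named higher and 20 named lower genes, 3 (Stfa1, Stfa2 and Cstdc5) and 1 (Thbs1) kept the call in all 16 alternatives run, counting a gene with fewer than 50 UMIs as without it. The minimum of 20 UMIs and no minimum only lower a limit, so they keep every call by construction and are no check. A higher S100a8 and S100a9 limit and a stricter cell filter each left 30 Ctrl members and also kept all 31 and 20 calls. C1qb (-0.37) and Ccl5 (-0.14) turned to lower in the mean over cells of CPM, and Ccl4 was at 0.0013 with those 7 genes at 0. The level classes, the highest-cell setting and the removal of cells with Elane, Mpo and Ctsg or C1q UMIs were chosen after seeing the data. Depth limits the Ctrl values most: a count of 0 in 31 cells still allows a share of up to 9.68% (11.2% by the exact interval).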
